A study of Mus musculus with 2 samples.

Results

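Phlda1 and 7 genes of the feedback on MAPK signalling, Dusp2, Dusp4, Dusp5, Dusp6, Spry1, Spry2 and Spred1, were followed across the stages of mouse thymocytes, which are T cells still maturing in the thymus. These 8 genes were taken by symbol from the 27933 gene symbols of both count tables, and each had at least 1 unique molecular identifier (UMI, a tag that marks 1 captured RNA molecule) in each library. Phlda1 was chosen by its lower level in 1 of the libraries, and the rest of the set was chosen with it, so its difference between the libraries over all cells is a description and supports nothing. One 10x Genomics Chromium 3' single-cell RNA library came from a wild type thymus and 1 from a thymus homozygous for mutations of GATA sites 1 and 2 (GS1+2) in NMe, called mutant here. NMe lies far from Myc, a gene of cell growth, and acts as a NOTCH-dependent enhancer of it in the T lineage. GATA sites are motifs read by GATA3 and its relatives. The age, sex and number of mice behind each library are not given in the sources used here. Since each genotype has 1 library, no test between genotypes exists and each comparison is between these libraries. The intervals given are at 95% and stand for counting error alone.

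A signal through the T cell receptor activates RAS, which passes it through the kinases RAF and MEK to ERK, the MAP kinase that enters the nucleus and switches on genes such as Egr1 and Cd69. ERK also switches on its own inhibitors: DUSP phosphatases remove the activating phosphates from MAP kinases, and Sprouty and SPRED proteins act further up, at the activation of RAS and RAF. In the thymus the strength and length of the ERK signal bear on whether a CD4+CD8+ cell is positively selected. PHLDA1, a protein with a pleckstrin homology-like domain, was found in T cell lines as a gene induced by receptor stimulation and tied to cell death, and it is not itself a phosphatase.

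There were 1346 cell barcodes with 6638880 UMIs in wild type and 1737 with 6364506 UMIs in mutant, with 1 barcode sequence in common. Filters left 1338 cells of the first and 1726 of the second. Each cell took its stage from the UMIs of marker lists that held none of the 8 genes, Egr1 or Cd69. Early CD4-CD8- cells (DN, marked by genes such as Il2ra and Hes1) were 50 in wild type and 199 in mutant. Cycling cells (Mki67, Top2a) were 508 and 246, resting CD4+CD8+ cells (DP; Rag1, Rag2) 194 and 288, post-selection cells (Itm2a, Cd5) 178 and 261, and single-positive cells (SP; Ccr7, S1pr1) 141 and 323. Of these 2388 cells, 173 had a second list close behind the first. Thymocyte identity showed in Cd8b1, at 918 UMIs per 1000000 UMIs (CPM) in wild type and 857 in mutant over all cells. Within the 5 stages the summed markers of red cells were at 2 to 14 CPM, those of thymic epithelium at 4 to 63 CPM, and those of macrophages and dendritic cells at 96 to 288 CPM. Myc, which the mutated enhancer regulates, was at 45.3 CPM in wild type and 23.3 CPM in mutant.

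Phlda1 was highest in wild type cycling and DP cells and low in every stage of the mutant library. The gene (ENSMUSG00000020205.8) lies on the plus strand at chr10:111506286-111508645 of mm10. Over all cells wild type held 81.2 CPM (74.5 to 88.4, from 536 UMIs) and mutant 15.2 CPM (12.3 to 18.6, from 96 UMIs). That is a level 5.33-fold lower in mutant, a log2 ratio (mutant over wild type, as throughout) of -2.41 (-2.74 to -2.10). Of 10719 genes with at least 20 UMIs, 0.355% were lower by 2-fold or more in mutant and 1.6% higher, with 5 CPM added to both sides for this count. Phlda1 was the 1 of the 8 genes past 2-fold lower, none was past 2-fold higher, and since Phlda1 was chosen for this difference nothing is read from the count. The antisense gene Gm28592, which overlaps Phlda1, had 0 UMIs in both libraries.

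The wild type level of Phlda1 rose and fell with stage. In DN cells it was at 3.59 CPM in wild type (0.09 to 19.99, from 1 UMI) and at 5.17 CPM in mutant (1.41 to 13.2, from 4 UMIs). In cycling cells it was at 106 CPM in wild type (95.6 to 117, from 402 UMIs) and at 17.1 CPM in mutant (11.6 to 24.3, from 31 UMIs). The DN levels rest on 1 and 4 UMIs, so a difference of the size seen in cycling cells may not be detectable there. In DP cells the levels were 100.4 CPM (75.8 to 130.3, from 56 UMIs) and 19.4 CPM (9.70 to 34.8, from 11 UMIs). In post-selection cells they were 39.98 CPM (24.4 to 61.7, from 20 UMIs) and 19.9 CPM (10.9 to 33.3, from 14 UMIs). In SP cells they were 17.4 CPM (7.52 to 34.3, from 8 UMIs) and 15.1 CPM (8.82 to 24.2, from 17 UMIs). The intervals of the libraries did not overlap in cycling and DP cells and overlapped in the other 3 stages.

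In wild type the order ran from cycling to DP, post-selection, SP and DN cells. Of these neighbours only DP and post-selection cells had intervals that lay apart. Wild type cycling cells held 29.5-fold the DN level, but that ratio rests on 1 UMI in DN cells and its interval ran from 5.26 to 1167. They held 2.64-fold (1.69 to 4.38) the level of post-selection cells. In mutant no neighbours in the order had intervals apart, and cycling over DN cells was 3.31-fold (1.17 to 12.9).

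The log2 ratio between the libraries was -2.62 (-3.20 to -2.10) in cycling cells, where 0.568% of 8985 genes were lower by 2-fold or more and 1.31% higher. It was -2.37 (-3.45 to -1.42) in DP cells, where 2.2% of 6007 genes were lower and 4.06% higher. In post-selection cells it was -1.01 (-2.11 to 0.05) and in SP cells -0.20 (-1.49 to 1.22), both with an interval that included 0. In DN cells it was 0.53 (-2.81 to 6.15), from 5 UMIs in all, which is too few to show a difference in either direction. Whether the ratio differs between stages was not tested.

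**Figure D1:**
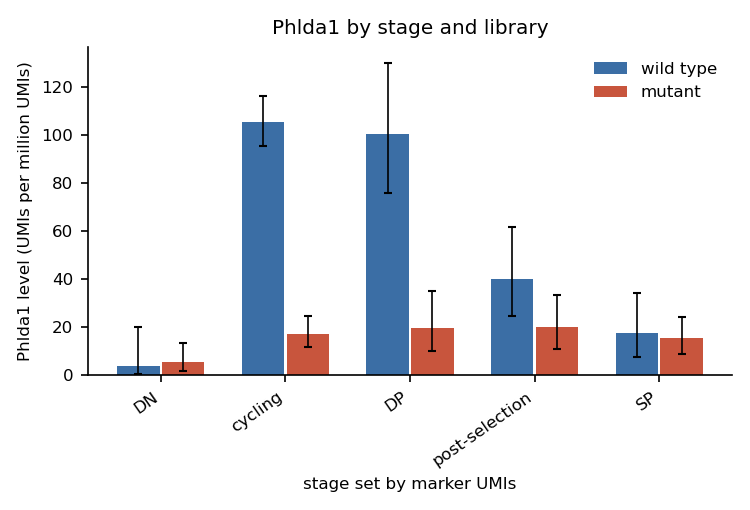
Phlda1 level in UMIs per 1000000 UMIs (vertical axis) in 5 thymocyte stages set by marker UMIs (horizontal axis), wild type in blue and mutant in red, 1 library each. Bars are levels of summed UMIs and whiskers are 95% Poisson intervals for counting error. Wild type cycling and DP cells stand at 106 and 100.4, and all mutant stages stay at or below 19.9.

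The Phlda1 RNA of wild type cycling cells was spread over many cells. A Phlda1 UMI was seen in 182 of 508 wild type and in 19 of 246 mutant cycling cells, 35.8% and 7.72%. Of the wild type cells, 92 held 1 UMI, 38 held 2, 25 held 3 and 27 held 4 or more, with 14 in the highest cell. With every cell thinned to 1500 UMIs the shares were 13.8% (10.9 to 17.1) and 2.87% (1.16 to 5.82) in cycling cells, and 9.79% (6.0 to 14.9) and 3.33% (1.45 to 6.46) in DP cells. In thinned wild type DN cells no Phlda1 UMI was seen in 50 cells, for which the exact interval reaches 7.11%. In thinned SP cells the shares were 1.42% (0.17 to 5.03) and 1.91% (0.70 to 4.11). The level of free RNA was not measured, so how much of these shares it supplies was not tested.

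Cycling cells of the libraries were not alike in make-up. The markers of DN cells summed to 52.6 CPM in wild type and 202 CPM in mutant cycling cells, while Rag1 was at 215 CPM and 98.4 CPM. Phlda1 is therefore described in 12 subsets of cycling and DP cells that were split by a marker or by depth. The subsets overlap and hold the cells on whose difference Phlda1 was chosen, so its lower mutant level in all 12 is a description and not 12 separate observations. In cycling cells with a Rag1 UMI, 340 and 88 cells, wild type stood at 116 CPM (104 to 130) and mutant at 25.8 CPM (15.02 to 41.3), which gives -2.17 (-2.97 to -1.47). In cycling cells without one it was at 80.4 CPM (64.5 to 98.9) and 12.2 CPM (6.66 to 20.4). A Cd8b1 UMI, a sign of CD8 expression, went with a higher Phlda1 level in wild type. The level was 110.2 CPM (99.6 to 122) in the 466 wild type cycling cells with it and 47.3 CPM (25.2 to 80.9) in the 42 without it. Between cell cycle phases the level differed by less than counting error. Cells with more S phase than mitosis marker UMIs held 111 CPM (92.4 to 132) in wild type and the others 103 CPM (91.6 to 116). DP cells without any cycling marker UMI held 124 CPM (81.4 to 180) in wild type and 13.4 CPM (4.35 to 31.3) in mutant. The part that make-up has in the difference between the libraries within a subset was not tested.

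**Figure D2:**
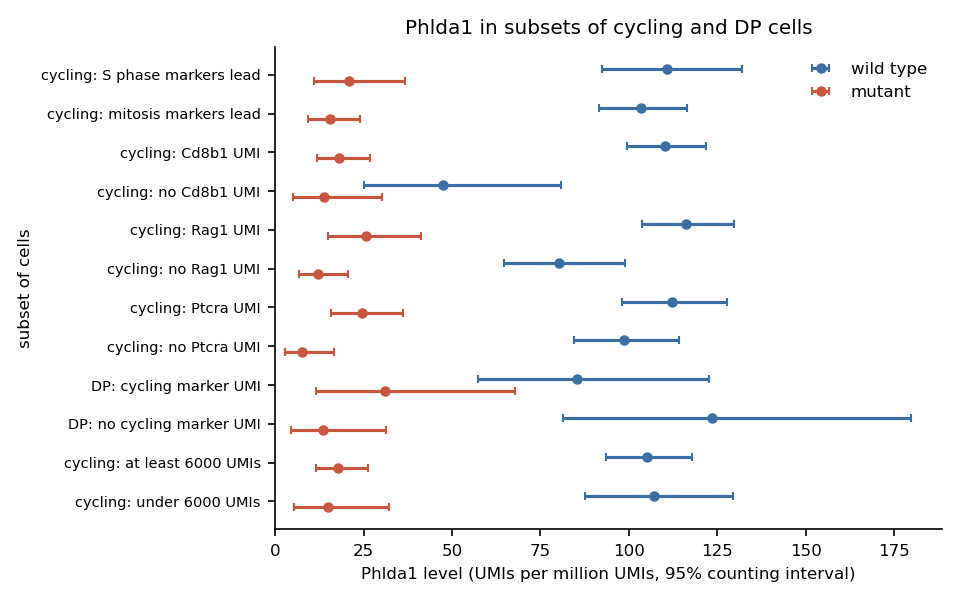
Phlda1 level in UMIs per 1000000 UMIs (horizontal axis) in 12 overlapping subsets of cycling and DP cells (vertical axis), wild type in blue and mutant in red. Points are levels of summed UMIs and lines are 95% counting intervals. Each wild type point lies to the right of its mutant point.

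The genes with the pattern most like Phlda1 over stage and library were found over the 10 points that 5 stages in both libraries give. These points hold the difference between the libraries for which Phlda1 was chosen, so a gene that is lower in mutant can rank high without the same order of stages. Points from 1 library share its preparation and depth, and 4346 genes had enough UMIs. The 5 highest Pearson correlations on the log2(CPM + 5) scale were 0.86 for Slc7a11, a cystine transporter gene, 0.85 for P3h4, 0.85 for Dnajc15, 0.84 for Hspb11 and 0.84 for Tubb2b, a tubulin gene. Slc7a11 was at 142 CPM in wild type DP cells and at 15.9 CPM in mutant DP cells, and in cycling cells at 19.98 and 1.66 CPM, so its wild type level differed between stages in which that of Phlda1 was nearly the same. None of the other 7 genes was among them. Phlda1 had a correlation of -0.24 with their summed level, of -0.34 with Cd69 and of 0.20 with Dusp5.

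Dusp2, Dusp5 and Dusp6 had another stage pattern, with the highest level in post-selection cells in both libraries. The intervals of post-selection and SP cells overlapped for Dusp2 and Dusp6 in both libraries and for Dusp5 in wild type. Spry1 in both libraries and Dusp4 in mutant were also highest in post-selection cells. That rests on 2 and 7 UMIs for Spry1 and on 7 for Dusp4, and the intervals of their neighbouring stages overlapped. Most UMIs of the DUSP genes and Spry1 came from Dusp2, Dusp5 and Dusp6. The DNA just before the start sites of Dusp2, Dusp5 and Dusp6 is shown because their levels are set beside that of Egr1, itself a transcription factor. RefSeq promoter sequences on build GRCm38.p6 were at hand for 6 of the 8 genes, all but Phlda1 and Dusp4. Each window below runs 5′ to 3′ on the plus strand, from 200 to 51 bases before the RefSeq start. Capitals mark a motif found by its letters.
Dusp2: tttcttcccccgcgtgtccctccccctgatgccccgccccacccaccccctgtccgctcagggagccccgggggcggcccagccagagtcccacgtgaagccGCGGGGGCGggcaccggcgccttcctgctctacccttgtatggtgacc
Dusp5: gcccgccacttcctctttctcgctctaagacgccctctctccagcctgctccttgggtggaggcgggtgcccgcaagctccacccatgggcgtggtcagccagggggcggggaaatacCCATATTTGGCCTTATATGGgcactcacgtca
Dusp6: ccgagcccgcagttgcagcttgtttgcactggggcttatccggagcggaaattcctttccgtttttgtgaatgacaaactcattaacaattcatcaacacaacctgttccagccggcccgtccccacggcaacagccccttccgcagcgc
These are chr2:127335959-127336108, chr19:53528945-53529094 and chr10:99263031-99263180. The capitals in Dusp2 are a match to the EGR motif GCGNGGGCG, 98 to 90 bases before the start. The capitals in Dusp5 are a pair of adjoining CArG boxes, the motif of serum response factor, 82 to 73 and 72 to 63 bases before the start. The 250 bases before the start were searched on both strands for these, for AP-1 (TGANTCA), CRE (TGACGTCA) and ETS (CCGGAAG) motifs and for NF-kB by name. Of 32851 promoters 4.70% held the EGR motif, 1.47% a CArG box, 6.75% AP-1, 1.55% CRE, 6.91% ETS and 5.0% NF-kB. These letters were not found in the windows of Dusp6, Spry1, Spry2 and Spred1, and a match of letters is no evidence of binding in these cells.

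Dusp2, a nuclear phosphatase of MAP kinases (ENSMUSG00000027368.6, chr2:127336159-127338376), had the most UMIs of the 7. In DN cells wild type held 78.9 CPM (49.5 to 119) and mutant 59.5 CPM (43.6 to 79.3). It was lowest in cycling cells, at 31.3 CPM (25.9 to 37.4, from 119 UMIs) and 32.1 CPM (24.4 to 41.5, from 58 UMIs). The libraries thus lay within counting error of each other where Phlda1 stood at its wild type peak. In DP cells Dusp2 was at 55.6 CPM (37.8 to 78.9) and 72.5 CPM (52.0 to 98.3). In post-selection cells it was at 198 CPM (161 to 241, from 99 UMIs) and 179 CPM (149 to 213, from 126 UMIs), and in SP cells at 126 CPM (95.8 to 163) and 154 CPM (132 to 179). Post-selection over cycling cells was 6.32-fold (4.79 to 8.33) in wild type and 5.58-fold (4.05 to 7.75) in mutant. Post-selection over DP cells was 3.56-fold (2.36 to 5.52) and 2.47-fold (1.72 to 3.60). Over SP cells it was 1.57-fold (1.12 to 2.21) in wild type and 1.16-fold (0.92 to 1.47) in mutant, where the interval included equal levels.

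Dusp5, a nuclear phosphatase specific for ERK (ENSMUSG00000034765.6, chr19:53529109-53542431), was also highest in post-selection cells in both libraries. There it stood at 55.97 CPM (37.2 to 80.9, from 28 UMIs) in wild type and 95.1 CPM (73.7 to 121, from 67 UMIs) in mutant. In cycling cells it was at 6.31 CPM (4.04 to 9.39) and 11.1 CPM (6.75 to 17.1), in DP cells at 23.3 CPM (12.4 to 39.8) and 19.4 CPM (9.70 to 34.8), and in SP cells at 23.9 CPM (11.95 to 42.8) and 12.5 CPM (6.82 to 20.9). Post-selection over cycling cells was 8.87-fold (4.96 to 15.98) and 8.60-fold (5.15 to 14.96). In DN cells no Dusp5 UMI was seen in wild type and 18 were seen in mutant, at 23.3 CPM (13.8 to 36.8). The exact interval of the log2 ratio starts at 0.66 and has no upper limit. These 18 UMIs in all are fewer than the minimum set for the counts of genes past 2-fold. With at least 5 list UMIs asked of a cell, wild type held 2 UMIs, at 7.22 CPM against 23.8 CPM in mutant. With NOTCH targets left out of the DN list it held 1, at 3.78 against 20.5 CPM. Under the remaining stage rules none was seen in wild type. No interval is given for these rules, so the size of this difference is poorly fixed. An antisense gene, AC137853.2, overlaps Dusp5, and the strand setting of the counting is not given in the sources used here, so reads of the 2 genes may not be told apart.

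Dusp6, a cytoplasmic phosphatase specific for ERK (ENSMUSG00000019960.8, chr10:99263231-99267489), was sparser and was also highest in post-selection cells. It was at 41.97 CPM (25.98 to 64.2, from 21 UMIs) in wild type and 31.2 CPM (19.6 to 47.3, from 22 UMIs) in mutant post-selection cells. In SP cells it was at 15.2 CPM (6.12 to 31.4) and 15.1 CPM (8.82 to 24.2), and in cycling cells at 1.31 CPM (0.43 to 3.07) and 3.87 CPM (1.56 to 7.97). Post-selection over cycling cells was 31.9-fold (11.7 to 108.4) in wild type, from 21 and 5 UMIs, and 8.07-fold (3.33 to 22.4) in mutant. With cells near the stage threshold left out, wild type cycling cells held 1 Dusp6 UMI, at 0.28 CPM, against 42.2 CPM in post-selection cells, so the size of this ratio is poorly fixed. Dusp4, a nuclear phosphatase like Dusp2 (ENSMUSG00000031530.6, chr8:34807297-34819894), had over all cells 21 UMIs in wild type against 30 in mutant, and no neighbouring stages had intervals apart.

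The genes that act further up were sparse, and among the 5 stages Spry2 was highest in DN cells of both libraries. Spry1 (ENSMUSG00000037211.12, chr3:37639947-37644598) and Spry2 (ENSMUSG00000022114.5, chr14:105891947-105896819) encode Sprouty proteins. An antisense gene, Gm42922, overlaps Spry1. Spry1 had 13 and 19 UMIs over all cells, with 2 and 7 of them in post-selection cells. Spry2 had 9 and 25 UMIs, with 2 in wild type DN cells and 10 in mutant DN cells, where it was at 7.18 CPM (0.87 to 25.9) and 12.9 CPM (6.20 to 23.8). In cycling cells, which held 37.97% of the wild type cells, Spry2 had 1 UMI in wild type and none in mutant. Spred1, an adaptor that brings neurofibromin to RAS (ENSMUSG00000027351.14, chr2:117121374-117182279), was at 17.9 CPM (5.82 to 41.9, from 5 UMIs) in wild type and 14.2 CPM (7.10 to 25.5, from 11 UMIs) in mutant DN cells. In mutant it was highest in post-selection cells, at 29.8 CPM (18.4 to 45.6, from 21 UMIs in 21 cells), and in wild type post-selection cells 1 UMI was seen, at 2.00 CPM (0.05 to 11.1).

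**Figure D3:**
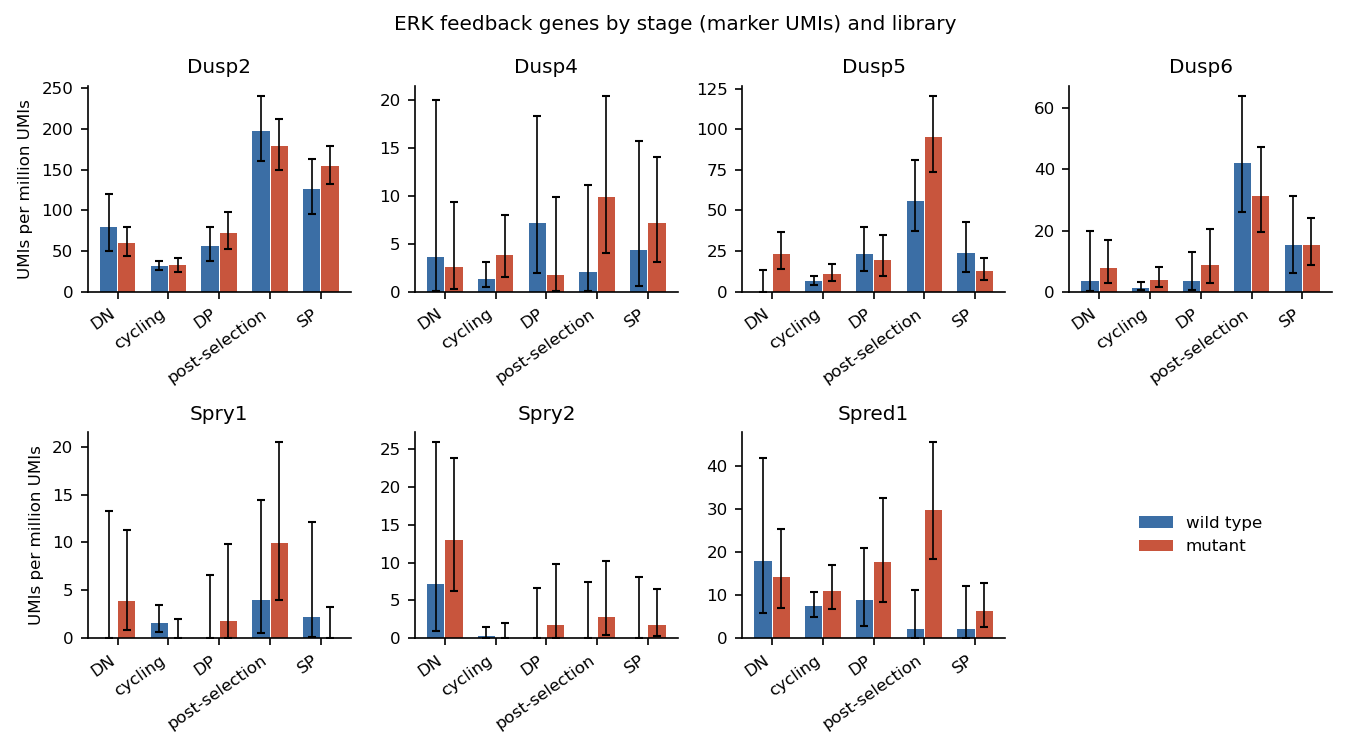
Levels of Dusp2, Dusp4, Dusp5, Dusp6, Spry1, Spry2 and Spred1 in UMIs per 1000000 UMIs (vertical axes, each from 0 with its own range) by stage set by marker UMIs, wild type in blue and mutant in red. Bars are levels of summed UMIs and whiskers are 95% Poisson intervals. Dusp2, Dusp5 and Dusp6 are highest in post-selection cells in both libraries, at 198 and 179 for Dusp2, beside 126 and 154 in SP cells.

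Egr1 and Cd69 were also highest in post-selection cells, followed by SP cells. For both genes the intervals of these stages lay apart in both libraries. Egr1 was at 7.63 CPM in wild type and 14.9 CPM in mutant cycling cells, and at 139.9 CPM (109 to 177) and 118 CPM (93.8 to 146) in post-selection cells. Cd69, an early surface marker of activated T cells, was at 2.37 and 11.6 CPM in cycling cells and at 139.9 CPM (109 to 177) and 219 CPM (185 to 256) in post-selection cells. Over the 10 points of stage and library the summed level of the 7 feedback genes had a correlation of 0.90 with Egr1 and 0.95 with Cd69, while Phlda1 had one of 0.00 with Egr1, on the log2(CPM + 5) scale. The 5 genes most like the sum were Tes at 0.98, Arf3, Zfp281, Id2 and Pglyrp2 at 0.97 each. Dusp2 supplies most of that sum, and its own correlation with it was 0.97. The correlation with the sum was 0.95 for Dusp6, 0.72 for Dusp5, 0.65 for Spry1 and 0.45 for Dusp4. It was 0.08 for Spry2 and -0.02 for Spred1, so the pattern of the sum is not that of each gene. Markers of regulatory and agonist-signalled T cells, such as Ikzf2 and Tnfrsf9, were also highest there, summed to 662 CPM in wild type and 802 CPM in mutant post-selection cells against 88.1 and 155 CPM in cycling cells, and their part in the levels was not tested.

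Over all cells the 7 feedback genes all had a higher level in mutant, and the intervals of Dusp4 and Spry1 included 0, with log2 ratios of 0.55 (0.37 to 0.73) for Dusp2, 0.58 (-0.27 to 1.46) for Dusp4, 0.69 (0.33 to 1.07) for Dusp5, 0.70 (0.15 to 1.26) for Dusp6, 0.62 (-0.48 to 1.75) for Spry1, 1.54 (0.39 to 2.83) for Spry2 and 0.79 (0.25 to 1.35) for Spred1. The median of the 8 genes was 0.47 and that of all genes 0.09, with 5 CPM added. Scaling by the median of gene ratios in place of the total lowers every ratio over all cells by 0.12. The libraries also differed in the stages they held: cycling cells, where Dusp2, Dusp5 and Dusp6 were low, were 37.97% of wild type and 14.3% of mutant cells. Within stages Dusp2 had log2 ratios of -0.41 (-1.17 to 0.40) in DN, 0.04 (-0.44 to 0.50) in cycling, 0.38 (-0.33 to 1.10) in DP, -0.15 (-0.54 to 0.25) in post-selection and 0.29 (-0.15 to 0.74) in SP cells, all with 0 inside the interval.

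Dusp5 and Spred1 were the exceptions in post-selection cells. Dusp5 had a log2 ratio of 0.76 (0.11 to 1.46) there, and one from 0.47 to 1.10 under the alternative settings. The lower end of that interval is smaller than the shift of 0.12 that the other scaling makes over all cells. That scaling has its own factor in each stage, and the interval was not recomputed with it. Its ratio was -0.94 (-2.19 to 0.34) in SP cells. Spred1 had a log2 ratio of 3.90 (1.26 to 9.27), which rests on 1 wild type UMI. With at least 5 list UMIs asked of a cell, which changes the stage of some cells, wild type held 2 UMIs, at 4.91 CPM against 26.2 CPM in mutant. The log2 ratio was then 2.41. In post-selection cells 0.873% of 5954 genes were lower and 2.12% higher by 2-fold or more. Of the 5 of the 8 genes with at least 20 UMIs, Spred1 was the 1 higher. Spred1 reached that minimum through its 21 mutant UMIs, so the filter partly set this count and nothing is read from it. In SP cells, where 0.704% of 6251 genes were lower and 2.24% higher, none of 4 measured genes passed 2-fold. In DN cells the shares were 0.981% and 8.81% of 5711 genes, and Dusp2, the 1 measured gene, did not pass. Dusp6 had log2 ratios of -0.43 (-1.36 to 0.51) in post-selection and -0.01 (-1.35 to 1.503) in SP cells.

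**Figure D4:**
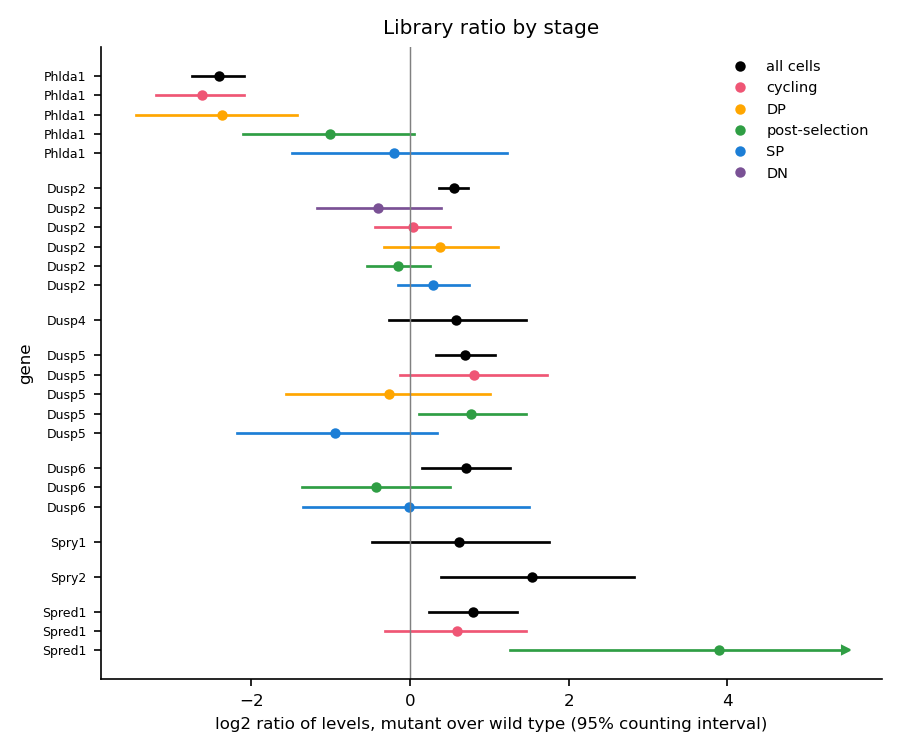
Log2 ratio of levels, mutant over wild type (horizontal axis), for the 8 genes (vertical axis) over all cells and in each stage with at least 20 UMIs of the gene, colored by stage. Points are ratios and lines are 95% counting intervals. The arrow marks an interval that goes on to 9.27 for Spred1 in post-selection cells. Phlda1 lies at -2.41 over all cells and the other 7 genes to the right of 0.

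Over all cells most other genes of the pathway had a higher level in mutant, as did 6781 of the 10719 genes measured, and within some stages this was not so. Of 16 measured genes on a list of ERK pathway feedback outside the 8, 11 had a higher level in mutant over all cells. Their median log2 ratio was 0.27, and whether each acts on ERK in these cells was not tested. The ends of this list were Dusp22 at -0.70 (-1.50 to 0.06) and Rasal1, a RAS inhibitor, at 1.19 (0.44 to 1.99), and none passed 2-fold with 5 CPM added. Of 21 genes of the ERK cascade itself, 15 were higher, with a median of 0.16, from Mapk3, which encodes an ERK kinase, at -0.21 (-0.47 to 0.05) to Rasgrp4 at 0.65 (-0.21 to 1.55). Of 15 cascade genes measured in post-selection cells 6 were higher and 9 lower. In SP cells the counts were also 6 and 9 of 15. In DN cells 13 of 15 were higher, in cycling cells 13 of 19 and in DP cells 11 of 14. Of 8 genes of the feedback list measured in SP cells 3 were higher and 5 lower. In DN, cycling, DP and post-selection cells 4 of 5, 9 of 14, 3 of 5 and 6 of 10 were higher. Of all genes, 3985 of 5711 were higher in DN, 6012 of 8985 in cycling and 3882 of 6007 in DP cells. In post-selection cells 3385 of 5954 genes were higher and in SP cells 3648 of 6251.

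Of 22 measured genes on a list of ERK-induced transcription, 20 were higher over all cells, with a median of 0.46. That list also holds transcription factors such as Srf and Elk4, and induction of its genes by ERK was not measured here. With 5 CPM added 2 passed 2-fold, Cd69 at 1.27 and Junb at 1.03 on the log2 scale. The ends of the list without that addition were Fosb, at 1.21 and 4.13 CPM, 1.77 (0.58 to 3.12), and Ccnd1, a cyclin D gene, at 2.27 and 1.59 CPM, -0.52 (-1.83 to 0.73). Next to Ccnd1, Id3, an inhibitor of E proteins, was at 239 CPM in wild type and 184 CPM in mutant (log2 -0.38, -0.49 to -0.27), and in cycling cells at 204 and 76.3 CPM, -1.42 (-1.69 to -1.15). Next to Fosb, the orphan receptor gene Nr4a3 was at 2.27 and 7.30 CPM, 1.68 (0.82 to 2.63), and Cd69 in all cells at 20.4 and 56.5 CPM, 1.47 (1.18 to 1.76). Within stages, 9 of 12 measured genes of this list were higher in DN, 10 of 17 in cycling and 6 of 10 in DP cells. In post-selection cells 12 of 16 were higher and in SP cells 13 of 16. Of 18 genes of the calcium and NF-kB branches, 15 were higher over all cells, with a median of 0.45. With 5 CPM added 1 of the 18 passed 2-fold higher, Relb at 1.05 on the log2 scale, beside 1.6% of all genes. The 18 ran from Rcan1 at -0.86 (-1.70 to -0.07) to Nfkb2 at 1.48 (0.92 to 2.08). In cycling cells 5 of 12 of them were higher and 7 lower, where 6012 of 8985 of all genes were higher. In DN cells 5 of 7 of them were higher, in DP 5 of 9, in post-selection 10 of 14 and in SP cells 9 of 14. Over all cells Phlda3, a relative of Phlda1, was at 3.33 and 8.26 CPM, 1.31 (0.56 to 2.10). Phlda2 had 1 UMI in wild type and none in mutant.

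Within post-selection cells, before thinning, cells with an Egr1 UMI held more Dusp2 and Dusp5 than cells without. A UMI of Egr1 was seen in 39 wild type and 48 mutant cells and not in 139 and 213. Median depths were close, at 2392 UMIs with and 2524 without in wild type and 2229 and 2258 in mutant. Dusp2 was at 403 CPM (43 UMIs) with and 142 CPM (56 UMIs) without Egr1 in wild type, a log2 ratio (with over without) of 1.504 (0.90 to 2.10). In mutant it was at 314 and 144 CPM, 1.12 (0.56 to 1.66). With each cell thinned to 1500 UMIs, which removes the extra chance of a deep cell to show both genes, the ratios were 1.90 (0.95 to 2.81) and 0.47 (-0.67 to 1.45). The higher Dusp2 thus held under thinning in wild type, and in mutant the thinned interval included 0.

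Dusp5 was at 131 CPM with and 35.6 CPM without Egr1 in wild type, a log2 ratio of 1.88 (0.71 to 3.06), and at 161 and 78.4 CPM in mutant, 1.03 (0.24 to 1.79). Dusp6 had ratios of 1.18 (-0.29 to 2.56) and 1.16 (-0.30 to 2.52). Phlda1 was at 93.8 CPM (10 UMIs) with and 25.4 CPM (10 UMIs) without Egr1 in wild type, 1.88 (0.46 to 3.31), and at 62.8 CPM (9 UMIs) and 8.91 CPM (5 UMIs) in mutant, 2.82 (1.09 to 4.74). These Phlda1 and Dusp5 values rest on few UMIs and were not steady. Under the alternative settings the Dusp5 ratio ran from -0.05 to 3.16 in wild type and from 0.42 to 1.64 in mutant. Thinned, the Phlda1 ratio in wild type was 1.48 (-0.70 to 3.38) and that in mutant 0.63 (-4.93 to 3.79). In the 14 wild type cells with 2 or more Egr1 UMIs, Phlda1 had 1 UMI (27.04 CPM) and Dusp5 had 2 (54.1 CPM), against 595 CPM (373 to 901) for Dusp2.

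Of all genes with at least 20 UMIs in post-selection cells, 3.73% (wild type, 3349 genes) and 2.27% (mutant, 4415 genes) were 2-fold or more higher in cells with Egr1. In wild type 4 of 4 measured members passed, Phlda1, Dusp2, Dusp5 and Dusp6, with a median log2 ratio of 1.59 beside 0.05 for all genes. In mutant 2 of 4 passed, with a median of 1.01 beside -0.01, and Phlda1 had too few UMIs to be among those 4. Markers of regulatory and agonist-signalled cells summed there to 703 CPM with and 650 CPM without an Egr1 UMI in wild type, and to 684 and 832 CPM in mutant.

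Cd69 split the same cells in a similar way for Dusp2 and Dusp5. With a Cd69 UMI (44 wild type and 77 mutant cells) Dusp2 was at 365 and 364 CPM, and without it (134 and 184 cells) at 145 and 88.6 CPM, log2 ratios of 1.33 (0.73 to 1.93) and 2.04 (1.49 to 2.61). Thinned, these were 1.56 (0.58 to 2.49) and 2.16 (1.42 to 2.91), so both intervals stayed above 0. Dusp5 had ratios of 1.45 (0.26 to 2.62) and 1.34 (0.61 to 2.09), and Dusp6 of 2.07 (0.70 to 3.50) and 0.51 (-0.90 to 1.85). In mutant, Dusp2 was at 88.6 CPM with no Cd69 UMI, 206 CPM (139 to 295) with 1 and 633 CPM (475 to 826) with 2 or more, and Dusp5 at 63.3, 55.03 and 340 CPM (228 to 488). The Phlda1 ratios of 0.76 (-0.80 to 2.19) and 1.04 (-0.70 to 2.78) had 0 inside. The regulatory markers summed to 573 CPM with and 689.9 CPM without a Cd69 UMI in wild type and to 893 and 758 CPM in mutant, and their part was not tested. The share of all genes past 2-fold was 2.54% in wild type and 2.47% in mutant, and 3 of 4 and 2 of 4 measured members passed.

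**Figure D5:**
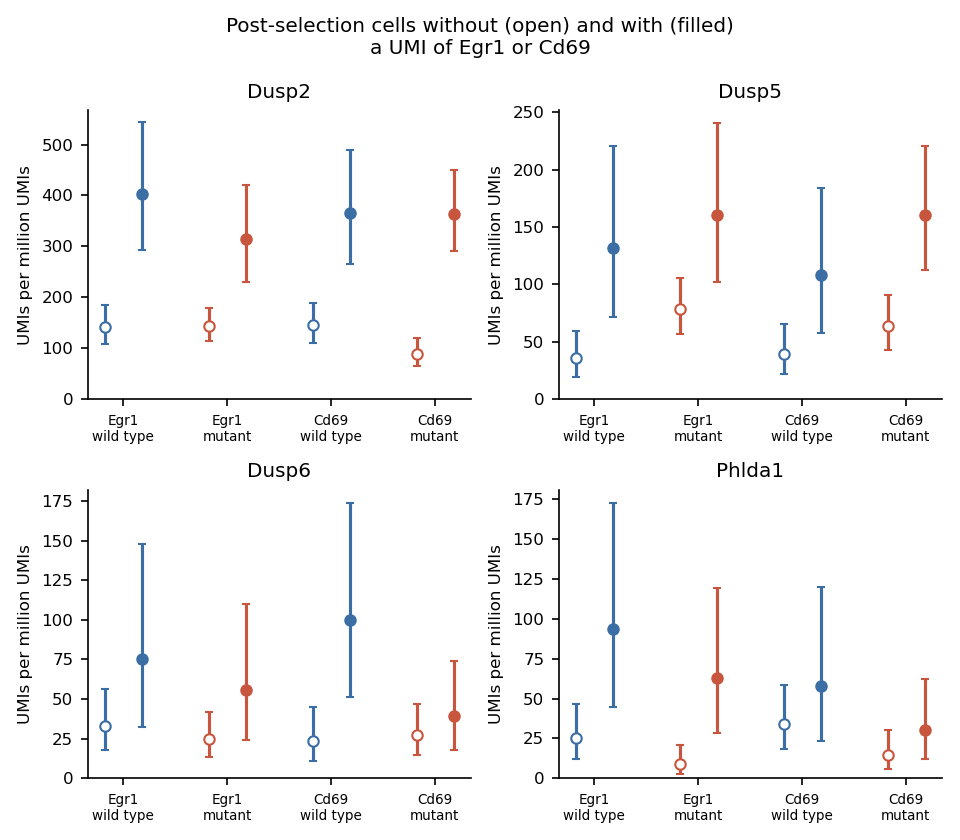
Levels in UMIs per 1000000 UMIs (vertical axes) of Dusp2, Dusp5, Dusp6 and Phlda1 in post-selection cells without (open circles) and with (filled circles) a UMI of Egr1 or Cd69 (horizontal axis), wild type in blue and mutant in red. Lines are 95% Poisson intervals. Filled points lie above open points in every pair, and the intervals of a pair are apart for Dusp2 in all 4 pairs.

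In wild type cycling cells Phlda1 was not higher in cells with a UMI of either gene. It was at 71.98 CPM (15 UMIs) in cells with an Egr1 UMI and at 108 CPM (387 UMIs) in cells without, a log2 ratio of -0.58 (-1.43 to 0.16). For Cd69 it was at 40.5 CPM (4 UMIs) and 107 CPM (398 UMIs), -1.41 (-3.29 to -0.04). The interval for Cd69 lies below 0 and rests on 4 UMIs in 9 cells. In mutant SP cells, cells with Egr1 (27 cells) held Dusp2 at 575 CPM against 110.1 CPM, 2.38 (1.91 to 2.85), and 2.40 (1.43 to 3.27) when thinned, where 4.61% of 5244 genes passed 2-fold. With Cd69 (48 cells) Dusp2 was at 314 CPM against 121 CPM there, 1.37 (0.90 to 1.84), where 1.87% passed, but thinned the ratio was 0.56 (-0.81 to 1.69). The regulatory markers were at 754 and 620.2 CPM with and without Cd69 there.

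Taken over the 5 stages together, cells with an Egr1 UMI were past 2-fold higher in 3 of 5 measured members in wild type, where 1.53% of 9262 genes were, and in 3 of 6 in mutant, where 0.658% of 9419 genes were. For Cd69 the counts were 3 of 5, beside 2.97% of genes, and 3 of 6, beside 0.86%. These sums mix stages, and Egr1, Cd69, Dusp2, Dusp5 and Dusp6 are all highest in post-selection cells. The regulatory markers also moved with both splits, at 342 against 168 CPM in wild type and 446 against 374 CPM in mutant for Egr1, and at 347 against 169.9 CPM and 583 against 348 CPM for Cd69. Within mutant cycling cells, 20 of which had a Cd69 UMI, 1 of 4 measured members, Spred1, passed, beside 2.69% of 6839 genes. It was at 25.6 CPM (4 UMIs) with and 9.68 CPM (16 UMIs) without Cd69, 1.40 (-0.64 to 3.04), an interval that included 0.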

How the data were processed

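Each library's deposited table gives raw counts, as UMIs of each gene symbol in each barcode. Per the labels' protocols, 5000 thymocytes per sample were loaded with the Chromium 3' v2 kit. Cell Ranger and mm10 are named in the submitters' processing notes, with the version not given in the sources used here. The lowest total was 1781 UMIs per barcode in wild type and 1416 in mutant, so the limit for a cell differed.

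Barcodes with at least 400 genes and at most 10% mitochondrial UMIs were kept. Scrublet (scanpy 1.11.5, expected rate 4%) called 8 of 3083 barcodes, 0.26%, which is too few for it to have worked, so doublets remain. A cell took the marker list with the highest UMIs per 10000, divided by that list's mean over all cells, among lists with at least 3 UMIs, and its stage name means cells like that type. A second list was close when the highest value was under 1.25 times it. Python 3.11.15, numpy 2.4.6, scipy 1.17.1 and pandas 2.3.3 were used.

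Counts were summed per library and stage and divided by the summed total (CPM). Intervals are exact Poisson ones for levels, exact conditional ones for ratios and, for shares, exact Clopper-Pearson ones. The 3' kit counts molecules, and levels are compared within a gene. The text names the 8 genes, Egr1, Cd69, the 5 genes most like Phlda1 and the 5 most like the sum of the others (at least 50 CPM in 1 point and 100 UMIs in all), and genes at the ends of each list. The members and lists were chosen with earlier results of these data known. Gene positions are from GENCODE for mm10.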

Additional observations from a re-analysis of the deposited data

How the results depend on the processing

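Across 394 recomputed values for 45 results, 386 stayed within the counting interval of the reported ratio (counts within 1.5 times), 6 moved beyond it and 2 of the called ratios changed sign. Phlda1 kept a lower level in mutant over all cells (-2.53 to -2.24), in cycling (-2.95 to -2.57), in DP (-2.64 to -1.89) and in post-selection cells (-1.48 to -0.59) under every alternative, and in SP cells its ratio ran from -0.41 to 0.43. With at least 2 UMIs asked of Egr1, the wild type post-selection ratios turned from 1.88 to -0.60 for Phlda1 and from 1.88 to -0.053 for Dusp5, in 14 cells. Thinned to 1500 UMIs, the ratios with over without Egr1 moved from 2.82 to 0.63 for Phlda1 and from 1.12 to 0.47 for Dusp2 in mutant, and from 1.88 to 3.16 for Dusp5 in wild type. With 1 CPM added, 1 member, Spry2, was past 2-fold higher in mutant over all cells in place of none. The share of all genes past 2-fold is not given for that addition. Spry2 reached the UMI minimum through its 25 mutant UMIs, against 9 in wild type. The filter thus partly set this count, and nothing is read from it. The mean over cells gave Dusp2 0.29 over all cells in place of 0.55, and at least 2 UMIs of Cd69 gave Dusp5 2.47 in mutant in place of 1.34. The cause of these moves was not tested. A B cell list without Ly6d and, for the Egr1 and Cd69 splits, a total without ribosomal protein and mitochondrial genes were added after seeing the data. Depth limits Dusp4, Spry1 and Spry2 most. No paired analysis was possible because there is 1 library per genotype.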

Other observations

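Some cells lay outside the 5 stages. The B cell marker list took 138 wild type and 169 mutant cells, but Ly6d led them, at 2822 CPM in wild type and 3540 CPM in mutant, with Ebf1 at 0 and with Rag1 at 453 and 323 CPM and Cd8b1 at 1700.3 and 2040.1 CPM. They are therefore called the Ly6d-led cells. Phlda1 was at 82.4 CPM (59.4 to 111) there in wild type and 11.6 CPM (3.75 to 26.96) in mutant (log2 -2.83, -4.53 to -1.50). When Ly6d was left out of the list, the Phlda1 level of DP cells was 100.01 CPM in wild type and 18.9 CPM in mutant.

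Cells with innate-like T and NK markers, 55 in wild type and 96 in mutant, held Dusp2 at 167 CPM (122 to 223) and 202 CPM (165 to 245), with intervals that overlap those of post-selection cells. Spry2 had 5 and 9 of its UMIs there, at 18.5 CPM (6.02 to 43.3) and 17.8 CPM (8.15 to 33.8). Phlda1 was at 11.1 CPM (2.29 to 32.5) and 11.9 CPM (4.36 to 25.9) in these cells.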
